A study of Rattus norvegicus with 9 samples.

Results

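The 9 genes described here are osteoblast transcription factors (Runx2, Sp7, Dlx5) and genes that build or regulate bone mineral (Alpl, Bglap, Ibsp, Spp1, Phospho1, Ankh). They were chosen by gene symbol from a table of 23768 genes, all 9 were found, and all 9 passed the filter on low counts that left 16816 genes. RNA from the tibia of male rats (strain Sprague Dawley) was sequenced, with 3 libraries in each of 3 groups: PMLGH (replicates 2, 3 and 4), GelMA (replicates 2, 3 and 4) and Model (replicates 1, 2 and 5). The PMLGH and GelMA groups were treated with the agents they are named after, per the series' design text, and GelMA commonly stands for gelatin methacryloyl, a gelatin that can be cross-linked into a hydrogel. The study title names a peptide made to act like LOX (lysyl oxidase, which cross-links collagen) and bone healing in diabetes. The labels give all groups the same strain, sex and tissue, and do not say what PMLGH stands for, how the Model state was made, how old the rats were, when the bone was sampled or whether each library is 1 animal. P-values therefore measure the spread between these libraries, which may be technical in part.

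Bone-forming osteoblasts arise from mesenchymal precursors under Runx2, which starts the lineage, and Sp7, also called osterix, which acts after it. They secrete type I collagen and a set of acidic proteins, and mineral then forms where phosphate is plentiful and pyrophosphate, a natural brake on crystal growth, is scarce. Alpl encodes the tissue-nonspecific alkaline phosphatase that splits pyrophosphate, Phospho1 encodes a phosphatase that frees phosphate inside matrix vesicles, and Ankh encodes a membrane protein that raises pyrophosphate outside the cell.

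Promoter windows were available for 7 of the 9 genes in RefSeq (build GRCr8), each running from 250 bases before to 50 bases after an annotated start. The windows of Runx2 (the upstream one of 2), Bglap and Ibsp are shown. These genes were higher in PMLGH and GelMA than in Model (below), and these windows hold letters searched for. Capitals mark matches, on either strand, to AACCACA (a Runx binding sequence), TAATTG, a core bound by homeodomain factors such as Dlx5, and to TATAAA, the usual form of the box that positions transcription starts. On the other strand the second motif reads CAATTA and the last TTTATA.

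Runx2, chr9:23664808-23665107, plus strand: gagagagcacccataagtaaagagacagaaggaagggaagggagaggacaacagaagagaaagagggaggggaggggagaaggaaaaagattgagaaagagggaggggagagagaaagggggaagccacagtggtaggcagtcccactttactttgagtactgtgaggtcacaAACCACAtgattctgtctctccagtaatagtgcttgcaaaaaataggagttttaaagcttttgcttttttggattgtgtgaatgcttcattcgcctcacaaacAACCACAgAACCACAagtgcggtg
Bglap, chr2:176137269-176137568, minus strand: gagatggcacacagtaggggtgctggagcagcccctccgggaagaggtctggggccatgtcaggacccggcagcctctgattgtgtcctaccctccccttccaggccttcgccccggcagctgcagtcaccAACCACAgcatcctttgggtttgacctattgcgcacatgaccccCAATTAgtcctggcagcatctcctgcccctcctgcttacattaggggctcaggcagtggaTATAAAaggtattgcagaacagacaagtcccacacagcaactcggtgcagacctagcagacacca
Ibsp, chr14:5757193-5757492, minus strand: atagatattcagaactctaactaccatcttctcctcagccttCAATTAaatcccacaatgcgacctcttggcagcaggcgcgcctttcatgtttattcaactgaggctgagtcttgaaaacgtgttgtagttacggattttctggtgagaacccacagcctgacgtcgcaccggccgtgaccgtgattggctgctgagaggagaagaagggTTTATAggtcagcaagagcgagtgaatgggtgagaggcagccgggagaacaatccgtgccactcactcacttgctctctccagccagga

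The Runx2 window held 3 matches to AACCACA, 1 of them before the start and the others after it. In the Bglap window AACCACA began 119 bases before the start, and 1 match each to TAATTG, on the opposite strand, and to TATAAA lay between it and the start. The Ibsp window held TAATTG and TATAAA, both on the opposite strand, and no AACCACA. The Spp1 window held TATAAA alone, and the downstream window of Runx2 and those of Alpl, Phospho1 and Ankh held none of the motifs. Of all 33469 windows of 300 bases, 5.57% held AACCACA, 8.2% held TAATTG and 14.2% held TATAAA, and no matched stretches overlapped in the printed windows. A match describes letters and shows no binding.

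Total counts ranged from 34571478 to 37166383 per library. Counts of the 9 genes ranged from 262 for Dlx5 in Model 5 to 81535 for Spp1 in GelMA 2. The 9 genes together held 0.24% of counts in Model 5, the lowest share of any library, and 0.33% and 0.35% in Model 1 and Model 2. Their share was 0.45%, 0.41% and 0.35% in PMLGH 2, 3 and 4, so PMLGH 4 was close to Model 2. In GelMA 2, 3 and 4 it was 0.46%, 0.47% and 0.46%. Model 2 was the least like its group: the chi-square of counts averaged 33.0 per gene between it and Model 1 and 27.7 between it and Model 5, against 15.7 between Model 1 and Model 5. Values without it are given where a call among the 9 genes changed. The closest replicates, GelMA 3 and 4, still had 7.56, so none were copies. In bulk RNA, fewer cells of a type and less RNA per cell cannot be told apart. The labels name no batch, and one that followed the groups cannot be told apart from treatment.

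Scaled to gene length (FPKM), the 9 genes covered a wide range of levels. Spp1, which encodes osteopontin, was the most abundant in every library, at 1065 ± 198 FPKM in PMLGH, 1453 ± 30.1 FPKM in GelMA and 1006 ± 229 FPKM in Model (SD, n = 3 each). Bglap, which encodes osteocalcin, and Ibsp, which encodes bone sialoprotein, came next in all 9 libraries. Both proteins are abundant in bone matrix and bind its mineral. Bglap averaged 894 ± 75.5 FPKM in PMLGH, 1078 ± 74.5 FPKM in GelMA and 511 ± 88.4 FPKM in Model. Ibsp averaged 689 ± 88.8 FPKM in PMLGH, 642 ± 7.46 FPKM in GelMA and 395 ± 90.9 FPKM in Model. In PMLGH the ranges of Spp1 (888 to 1278 FPKM) and Bglap (819.9 to 971 FPKM) overlapped, and in GelMA they did not. Bglap and Ibsp overlapped in Model only, and Sp7 and Dlx5 overlapped in GelMA and Model but not in PMLGH. The enzymes and Ankh lay lower, between 46.7 and 102 FPKM. Their order differed by group: Alpl stood above Phospho1 in all PMLGH and GelMA libraries and below it in all Model libraries. The 3 transcription factors were lowest, between 3.14 and 11.8 FPKM, with Runx2 last in every library. The FPKM of Runx2 rest on a gene length of 14463 bases, the longest of the 9, so its place depends on that length.

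**Figure D1:**
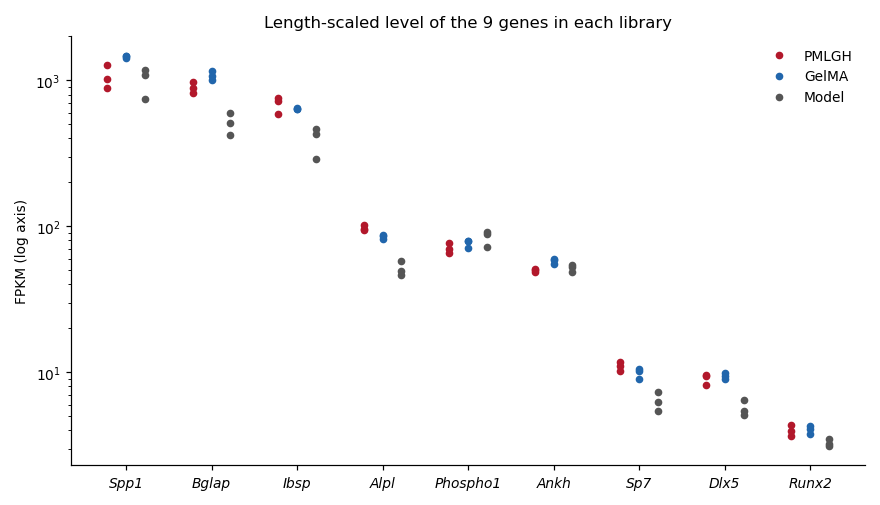
FPKM of the 9 genes on a log axis, 1 point per library, with PMLGH, GelMA and Model side by side. Spp1, Bglap and Ibsp lead in every library, and Alpl lies above Phospho1 in PMLGH and GelMA but below it in Model.

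PMLGH against Model asks how the 9 genes differed between tibiae of those groups. Levels of a single gene are given as CPM, in which each count is divided by its library's TMM-scaled total. Calls are those of edgeR's quasi-likelihood test at an adjusted p under 0.05, and each log2 fold change carries ± its approximate SE. Of the 9 genes 6 rose, 1 fell and 2 did not pass, where among all genes tested 15.7% rose and 11.9% fell (27.5% in either direction). The median log2 fold change was 0.67 over the 9 genes and 0.02 over all genes tested. For 6 of the 9 no PMLGH library fell within the Model range or the reverse, against 39.4% of all genes, and all 6 were higher in PMLGH, against 21.1% of all genes.

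Sp7 had 34.7, 37.6 and 32.9 CPM in PMLGH 2, 3 and 4, 28.7, 32.5 and 31.6 CPM in GelMA 2, 3 and 4, and 20.3, 23.4 and 17.5 CPM in Model 1, 2 and 5. All PMLGH and all GelMA libraries lay above all Model libraries. The log2 fold change of Sp7 was 0.78 ± 0.10 in PMLGH against Model (edgeR adjusted p = 4.0e-05) and 0.60 ± 0.10 in GelMA against Model (adjusted p = 5.3e-04).

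Dlx5, a homeodomain factor of the osteoblast lineage, had 14.0, 14.3 and 12.4 CPM in PMLGH, 14.7, 13.6 and 13.1 CPM in GelMA, and 8.26, 9.66 and 7.69 CPM in Model. PMLGH and GelMA covered nearly the same range and neither overlapped Model. The log2 fold change was 0.67 ± 0.12 for PMLGH against Model (edgeR adjusted p = 5.9e-04) and 0.70 ± 0.12 for GelMA against Model (adjusted p = 5.8e-04).

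Runx2 had 57.0, 63.5 and 53.7 CPM in PMLGH, 54.4, 60.8 and 58.0 CPM in GelMA, and 51.6, 45.6 and 47.7 CPM in Model. The groups did not overlap with Model, but the gap was narrow, with the highest Model library close to the lowest PMLGH and GelMA libraries. It rose by 0.27 ± 0.07 on the log2 scale in PMLGH against Model (edgeR adjusted p = 0.016) and by 0.26 ± 0.07 in GelMA against Model (adjusted p = 0.022). Both calls were lost without Model 2 (adjusted p = 0.063 and 0.078) and without Model 5 (0.071 and 0.085). The first was also lost without PMLGH 3 (0.097), the second without GelMA 3 (0.15) or GelMA 4 (0.088), and both on the FPKM scales. Over its alternatives the adjusted p ran from 0.012 to 0.097 in PMLGH against Model and from 0.016 to 0.15 in GelMA against Model. The gene overlaps Supt3h and a long noncoding RNA in the RefSeq annotation, and since the strand of counting is not given in the sources used here, its counts may hold reads of those genes.

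**Figure D2:**
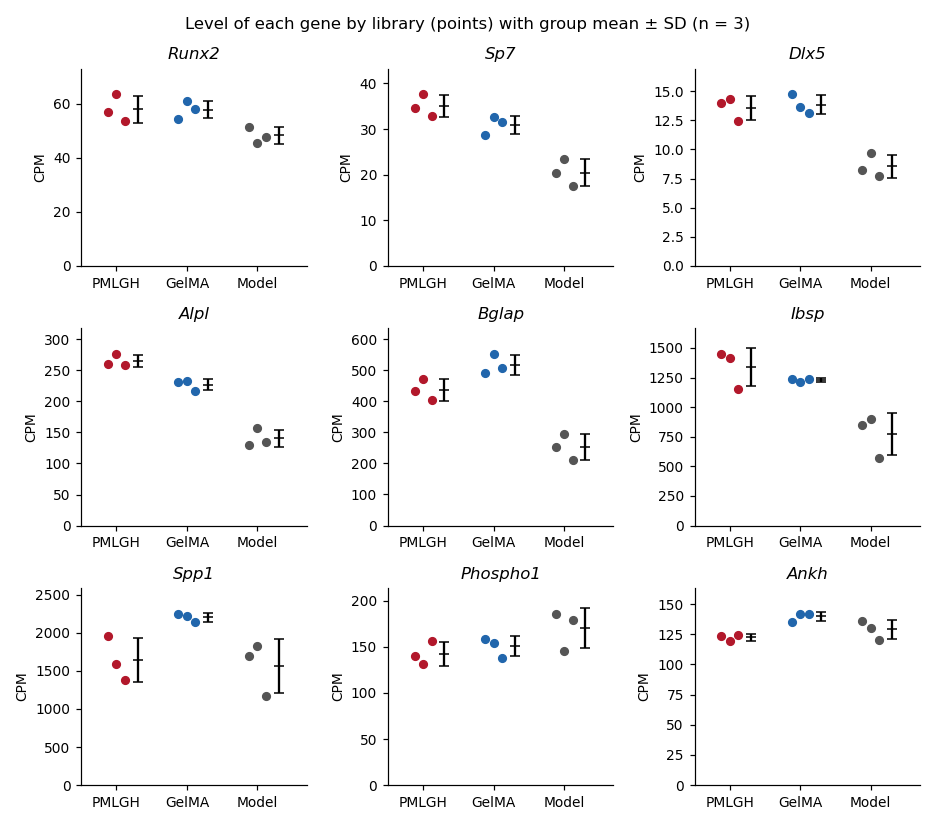
CPM of each gene in each library (points), with the group mean and SD (bars, n = 3), PMLGH, GelMA and Model from left to right. Runx2, Sp7, Dlx5, Alpl, Bglap and Ibsp lie higher in all PMLGH and GelMA libraries than in Model, while Spp1 does so in GelMA only, and Phospho1 and Ankh overlap with Model in both groups.

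Among the genes of the mineralizing matrix, Alpl had the smallest p of the 9 in PMLGH against Model. It had 260.2, 276 and 259 CPM in PMLGH, 232, 234 and 216 CPM in GelMA, and 129, 156 and 135 CPM in Model, so that the 3 groups did not overlap with one another. The log2 fold change was 0.92 ± 0.07 in PMLGH against Model (edgeR adjusted p = 2.3e-07) and 0.70 ± 0.07 in GelMA against Model (adjusted p = 6.0e-06). Rodent neutrophils also carry alkaline phosphatase. Of 9 neutrophil marker genes tested, 3 rose and 1 fell in PMLGH against Model and 1 rose in GelMA against Model. Their summed level was 12478 to 15934 CPM in PMLGH, 12516 to 13577 CPM in GelMA and 10936 to 14445 CPM in Model, and no marker passed in PMLGH against GelMA in edgeR, with 0 at an unadjusted p under 0.05 and 0 in DESeq2. Its part in the Alpl result was not tested.

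Bglap had 432, 473 and 404.5 CPM in PMLGH, 493, 553 and 507 CPM in GelMA, and 252, 294 and 209.7 CPM in Model. Every GelMA library lay above every PMLGH library, and every PMLGH library above every Model library. It rose by 0.79 ± 0.10 on the log2 scale in PMLGH against Model (edgeR adjusted p = 3.3e-05) and by 1.04 ± 0.10 in GelMA against Model (adjusted p = 3.3e-06).

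Ibsp had 1449.5, 1412 and 1153 CPM in PMLGH, 1241, 1209 and 1234 CPM in GelMA, and 849, 901 and 574 CPM in Model. The GelMA libraries fell inside the PMLGH range, and Model 5 was well below the other Model libraries. It rose by 0.79 ± 0.13 on the log2 scale in PMLGH against Model (edgeR adjusted p = 3.5e-04) and by 0.67 ± 0.13 in GelMA against Model (adjusted p = 0.0017). With single libraries left out, these log2 fold changes ran from 0.60 to 0.89 and from 0.48 to 0.76.

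Spp1 differed from these in its pattern. It had 1957, 1585 and 1385 CPM in PMLGH, 2253, 2225 and 2136 CPM in GelMA, and 1701, 1828 and 1168 CPM in Model. PMLGH and Model covered overlapping ranges, and the GelMA libraries lay above both. The log2 fold change was 0.07 ± 0.14 in PMLGH against Model (edgeR adjusted p = 0.76), with a 95% interval of -0.22 to 0.36, and it turned to -0.093 without PMLGH 2 and -0.12 without Model 5. In GelMA against Model Spp1 rose by 0.49 ± 0.14 (adjusted p = 0.018). That call was lost without Model 5, the lowest Model library (0.31, adjusted p = 0.067), without GelMA 3 (0.062), with a robust spread (0.088) and in DESeq2 (0.054), and its adjusted p ran from 7.0e-04 to 0.088 over its alternatives. Spp1 is also made by macrophages and osteoclasts. Macrophage markers rose for 8 of 10 genes in PMLGH against Model, and for 4 of 10 in GelMA against Model with 1 that fell. Their summed level was 10167 to 11017 CPM in PMLGH, 8353 to 9143 CPM in GelMA and 8132 to 10137 CPM in Model. Most of that sum was Lyz2, which averaged 8793 CPM in PMLGH, 7177 CPM in GelMA and 7864 CPM in Model. Lyz2 passed in none of the comparisons, so the sum says little of the other macrophage markers. Osteoclast markers rose for 7 of 9 and 4 of 9 genes in those comparisons, with summed levels of 2487 to 3102 CPM in PMLGH, 2181 to 2300.0 CPM in GelMA and 1418 to 1834 CPM in Model. In PMLGH against GelMA 6 of 10 macrophage markers rose. Of 9 osteoclast markers 1 passed there in edgeR and fell, Calcr, the calcitonin receptor, picked out after its values were seen (2.49 CPM in PMLGH and 6.75 CPM in GelMA). The list's median log2 fold change was 0.24, with 7 of 9 at an unadjusted p under 0.05, 4 called in DESeq2 and 1 in limma on FPKM. The 6 of those 7 other than Calcr were higher in PMLGH, from 0.23 (Nfatc1) to 0.77 (Ocstamp), and did not pass in edgeR. The part of these cells in the Spp1 values was not tested.

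Phospho1 was the gene of the 9 that fell. It had 139.6, 131 and 156 CPM in PMLGH, 159, 154 and 138 CPM in GelMA, and 186, 145 and 179 CPM in Model. Model 2 lay inside the range of the other groups, while Model 1 and Model 5 lay above it. The log2 fold change was -0.26 ± 0.09 in PMLGH against Model (edgeR adjusted p = 0.043) and -0.18 ± 0.09 in GelMA against Model (adjusted p = 0.18, 95% interval -0.37 to 0.01). Without Model 2 the values were -0.39 (adjusted p = 3.8e-04) and -0.31 (0.0034). The call in PMLGH against Model was lost without Model 1 (adjusted p = 0.18), Model 5 (0.12), PMLGH 2 (0.096) or PMLGH 3 (0.18), in a fit of only those groups (0.057) and with FPKM at either pseudocount (0.090 and 0.085). Its adjusted p spanned 3.8e-04 to 0.18 across alternatives. PHOSPHO1 is known from human and mouse red cell precursors as well as from bone. Erythroid markers fell for 10 of 10 genes in PMLGH against Model and for 9 of 10 in GelMA against Model. Their summed level was 9672 to 10869.8 CPM in PMLGH, 10168 to 10994 CPM in GelMA and 11961.5 to 14949 CPM in Model, where Model 2 was the lowest Model library, as it was for Phospho1. In PMLGH against GelMA none of the 10 passed in edgeR, with 0 at an unadjusted p under 0.05 and 0 in DESeq2. The part of red cell precursors in the Phospho1 values was not tested.

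Ankh had 124, 119 and 125 CPM in PMLGH, 135, 142 and 142 CPM in GelMA, and 136, 130.0 and 121 CPM in Model. All groups lay within a narrow band, and Model overlapped with both others. The log2 fold change was -0.07 ± 0.06 in PMLGH against Model (edgeR adjusted p = 0.39, 95% interval -0.20 to 0.05) and 0.12 ± 0.06 in GelMA against Model (adjusted p = 0.17, 95% interval -0.0065 to 0.24).

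GelMA against Model, read over all 9 genes, had 7 that rose, none that fell and 2 that did not pass, where among all genes tested 12.7% rose and 9.88% fell (22.6% in either direction). The median log2 fold change was 0.60 over the 9 genes and 0.03 over all genes. The 7 that rose were also the 7 whose libraries did not overlap, against 36.6% of all genes (19.8% without overlap and higher in GelMA). This comparison and PMLGH against Model share the Model libraries, so their values are given side by side and not as independent results.

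**Figure D3:**
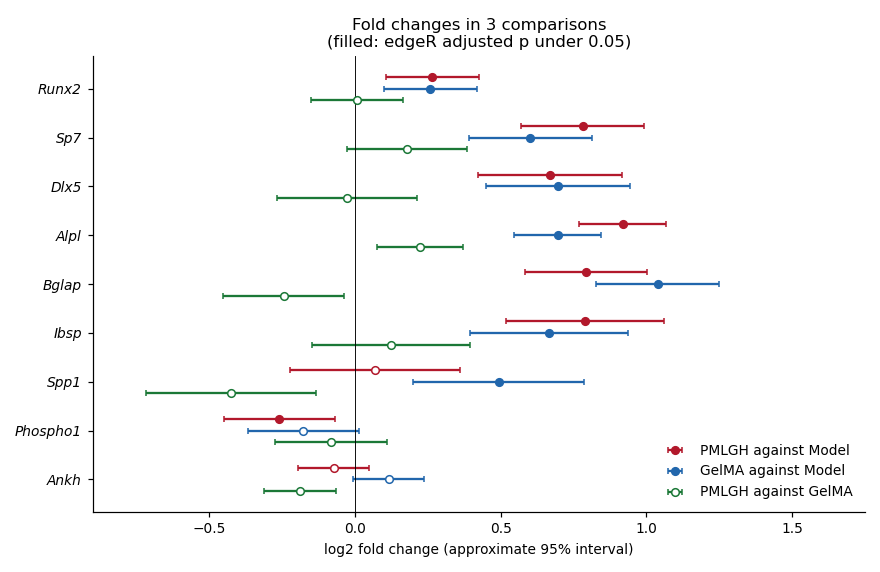
Log2 fold change of each gene in the 3 comparisons (PMLGH over Model, GelMA over Model, PMLGH over GelMA), with approximate 95% intervals, filled where edgeR's adjusted p was under 0.05. Points lie right of 0 where the group named first was higher; Alpl and Bglap have the highest values, and no PMLGH against GelMA point is filled.

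PMLGH against GelMA sets the treated groups against each other. None of the 9 genes passed in edgeR, where 1.8% of all genes rose and 1.64% fell (3.44% in either direction), while 4 had an unadjusted p under 0.05, DESeq2 called 1 (Alpl) and limma on FPKM called 0. All genes called were 578, and 373 without PMLGH 2, 303 without PMLGH 3, 381 without PMLGH 4, 338 without GelMA 3, 328 without GelMA 4 and 1050 without Model 2. Libraries of both groups did not overlap for 5 of the 9 genes, against 23.7% of all genes: Sp7 and Alpl were higher in PMLGH (12.3% of all genes), and Bglap, Spp1 and Ankh were lower. Alpl averaged 265 ± 9.85 CPM in PMLGH and 227 ± 9.51 CPM in GelMA, a log2 fold change of 0.22 ± 0.07 (adjusted p = 0.10). Bglap averaged 437 ± 34.5 CPM in PMLGH and 517 ± 31.3 CPM in GelMA (-0.24 ± 0.10, adjusted p = 0.23). Spp1 averaged 1642 ± 290.4 CPM in PMLGH and 2205 ± 61.1 CPM in GelMA (-0.42 ± 0.14, adjusted p = 0.12). Ankh averaged 123 ± 2.90 CPM in PMLGH and 139.8 ± 4.07 CPM in GelMA (-0.19 ± 0.06, adjusted p = 0.096). In a fit of only the 6 libraries of these groups, whose spread does not draw on Model, these 4 genes passed with adjusted p = 0.014, 0.023, 0.0060 and 0.030. That fit called 1059 of all genes. The same 4 genes also passed in the fit without Model 2, which called 1050 of all genes, with adjusted p = 0.011, 0.043, 0.028 and 0.043. Spp1 did so without PMLGH 2 (0.048) and without Model 5 (0.021). Over all edgeR, DESeq2 and FPKM alternatives their adjusted p ran from 0.011 to 0.33 for Alpl, 0.0053 to 0.51 for Bglap, 5.0e-04 to 0.37 for Spp1 and 0.030 to 0.30 for Ankh. Sp7 had a log2 fold change of 0.18 ± 0.10, Ibsp of 0.12 ± 0.13 and Phospho1 of -0.08 ± 0.09. For Runx2 and Dlx5 the value changed sign with the library left out, and their 95% intervals ran from -0.15 to 0.17 and from -0.27 to 0.21.

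Ratios of 2 genes within a library do not depend on how that library is scaled. The log2 ratio of Bglap, a late gene, to Runx2, an early one, was 2.92, 2.90 and 2.91 in PMLGH 2, 3 and 4, 3.18, 3.18 and 3.13 in GelMA 2, 3 and 4, and 2.29, 2.68 and 2.14 in Model 1, 2 and 5. The 3 PMLGH libraries lay within a span far smaller than that of Model, and no groups overlapped. The difference was 0.54 for PMLGH against Model, 0.79 for GelMA against Model and -0.25 for PMLGH against GelMA. The exact two-sided permutation p was 0.1 for each, the smallest that 3 against 3 libraries allow.

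The log2 ratio of Alpl, which removes pyrophosphate, to Ankh, which raises it outside cells, separated the groups in a different order. It was 1.07, 1.21 and 1.05 in PMLGH, 0.78, 0.72 and 0.60 in GelMA, and -0.08, 0.27 and 0.16 in Model. All PMLGH libraries were highest, GelMA intermediate and Model lowest, with no overlap. The mean was 0.99 higher in PMLGH than in Model and 0.58 higher in GelMA than in Model (exact permutation p = 0.1 each). It was 0.41 higher in PMLGH than in GelMA (exact permutation p = 0.1). That last separation restates values given above and is not a further result. Every PMLGH library lay above every GelMA library in Alpl and below every GelMA library in Ankh. The log2 ratio of Spp1 to Bglap averaged 1.90 ± 0.24 in PMLGH, 2.09 ± 0.09 in GelMA and 2.62 ± 0.14 in Model (SD, n = 3 each). Both differences from Model, -0.72 for PMLGH and -0.53 for GelMA, were without overlap (exact permutation p = 0.1 each), and PMLGH and GelMA overlapped (-0.19, exact permutation p = 0.3).

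**Figure D4:**
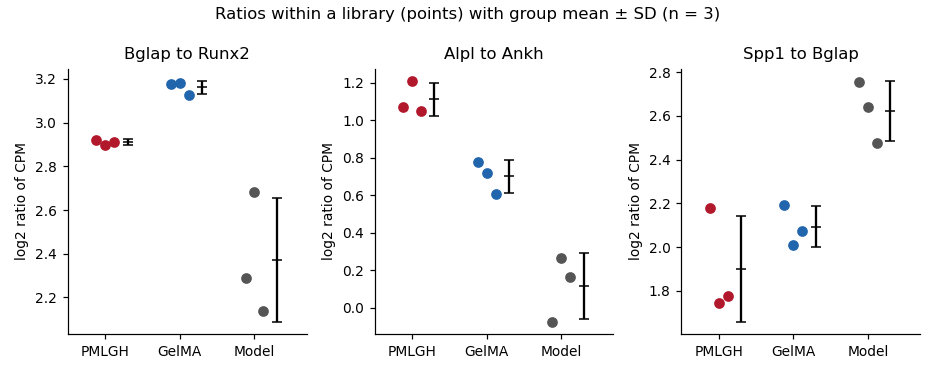
Log2 ratio of CPM of Bglap to Runx2, Alpl to Ankh and Spp1 to Bglap in each library (points), with group mean and SD (bars, n = 3); the vertical axes do not start at 0. Bglap to Runx2 is highest in GelMA, Alpl to Ankh is highest in PMLGH, and Spp1 to Bglap is highest in Model.

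Across the 9 libraries, the 6 genes that rose in both comparisons with Model varied together, with Pearson correlations of log2 CPM from 0.78 to 0.97. This describes 9 points in 3 groups that share libraries and is not a test. Genes picked for lying above Model in both treated groups correlate over the same libraries in part through that choice. Spp1 correlated with these 6 between 0.35 and 0.70 and with Ankh at 0.74. Within groups, Model 2 was above its group mean for Sp7, Dlx5, Alpl, Bglap, Ibsp and Spp1 and below it for Runx2 and Phospho1. By the same measure over 14214 other genes of at least 1 CPM, the 5 genes most like Bglap were Tnni1 (0.993), Ttl (0.987), Ace (0.985), Arsb (0.983) and Egr2 (0.981). Tnni1 encodes a troponin of slow muscle fibres. The 5 most like Spp1 were Ak5 (0.950), Vpreb1 (0.947), Pus7l (0.937), Msantd4 (0.933) and Dmp1 (0.932), the last an acidic matrix protein of osteocytes. The 5 most like Ankh were RGD1566085 (0.952), Prkab2 (0.940), Abt1 (0.939), Gcfc2 (0.933) and Cacnb1 (0.927). As the highest of 14214 values over only 9 libraries, these correlations are high in part through that choice, and none was tested.

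Related genes were counted from lists written from general knowledge, with earlier results of these data known. Among all genes tested, 15.7% rose and 11.9% fell in PMLGH against Model, and 12.7% rose and 9.88% fell in GelMA against Model. In PMLGH against GelMA 1.8% rose and 1.64% fell. Of 11 other regulators of the osteoblast lineage tested (Msx2 was too low), 7 rose and 1 fell in PMLGH against Model, with a median log2 fold change of 0.71, and 5 rose and 1 fell in GelMA against Model, with a median of 0.53. The count of 8 called in PMLGH against Model was 5 without PMLGH 3 or without Model 1. They include Zfp521, a zinc finger protein that binds Runx2 (0.81 ± 0.10 in PMLGH and 0.63 ± 0.10 in GelMA against Model, edgeR adjusted p = 4.1e-05 and 5.4e-04), and Twist1, a repressor of early osteoblasts (0.84 and 0.53). Dlx3, a relative of Dlx5, rose by 0.40 in PMLGH and 0.67 in GelMA against Model. The 1 that fell in both was Atf4, a factor of late osteoblasts and of amino acid stress (-0.22 and -0.25), which was picked out after its values were seen.

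Of 12 genes of osteoblast matrix and surface, 11 rose in PMLGH against Model (median 0.70) and 10 in GelMA against Model (median 0.55), and none fell. Col1a1 and Col1a2, the chains of type I collagen, rose by 1.08 and 1.22 in PMLGH against Model and by 0.92 and 1.01 in GelMA against Model. Serpinh1, the chaperone of collagen, rose by 0.90 and 0.63, and Tnn, a tenascin of the periosteum, by 2.60 and 1.92. In PMLGH against GelMA 3 of the 12 rose, and 1 did so without PMLGH 3, GelMA 2 or GelMA 4. They were Tnn (0.68), Serpinh1 (0.28) and Pth1r, the parathyroid hormone receptor (0.29), of which Pth1r was named after its values were seen.

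Of 9 other genes of phosphate and pyrophosphate handling, 5 rose and none fell in both comparisons with Model, with medians of 0.35 for PMLGH and 0.22 for GelMA. Smpd3, the sphingomyelinase that supplies the substrate of Phospho1, rose by 0.71 in both, and Nt5e, which makes adenosine from AMP, by 0.67 and 0.61. Xpr1, the phosphate exporter, rose by 0.33 and 0.22, and Mgp, a matrix protein that inhibits calcification, by 0.35 and 0.38. Enpp1, the enzyme that makes pyrophosphate, averaged 64.0 CPM in PMLGH, 70.4 CPM in GelMA and 69.4 CPM in Model. It did not pass (-0.12 and 0.02, edgeR adjusted p = 0.24 and 0.86). Slc20a1 and Ppa1, picked out after their values were seen, were lower in PMLGH against Model without passing (-0.16 and -0.14, edgeR adjusted p = 0.0501 and 0.10). The count of 5 called in PMLGH against Model was 7 with upper-quartile scaling. In PMLGH against GelMA none of the 9 passed, with 0 at an unadjusted p under 0.05 and 0 in DESeq2, and none of the 11 regulators did, with 2 at an unadjusted p under 0.05 and 0 in DESeq2.

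**Figure D5:**
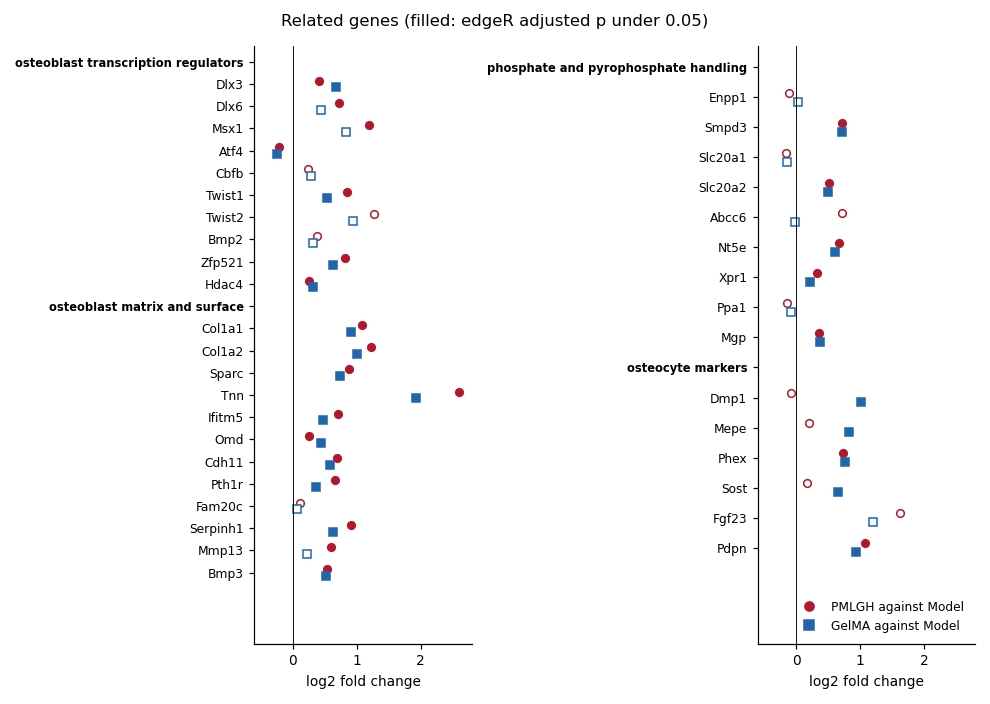
Log2 fold change of related genes in PMLGH against Model (circles) and GelMA against Model (squares), by list, filled where edgeR's adjusted p was under 0.05. Most regulators and matrix genes lie right of 0 in both comparisons, while Dmp1 is near 0 in PMLGH and at 1.02 in GelMA.

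Of 6 osteocyte markers, 2 rose in PMLGH against Model (Pdpn by 1.08 and Phex, an endopeptidase that limits phosphate loss, by 0.74), 5 rose in GelMA against Model, and 3 fell in PMLGH against GelMA. Dmp1 averaged 382 ± 100.3 CPM in PMLGH, 822 ± 16.3 CPM in GelMA and 405 ± 94.0 CPM in Model (SD, n = 3 each), a log2 fold change of -1.11 ± 0.16 for PMLGH against GelMA (edgeR adjusted p = 0.0010). Mepe, a further acidic protein of osteocytes, averaged 225 CPM in PMLGH, 347 CPM in GelMA and 196 CPM in Model, -0.62 for PMLGH against GelMA, and Fgf23, the phosphate hormone of osteocytes, averaged under 1 CPM in each group and did not pass. Like Spp1, Dmp1 and Mepe had their highest group mean in GelMA.

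Markers of other tissues were counted over the same groups. Fibroblast and periosteum markers rose for 10 of 10 genes in each comparison with Model, with summed levels of 4618 to 5309.8 CPM in PMLGH, 3206 to 3587 CPM in GelMA and 1408 to 1597 CPM in Model, and 5 of 10 rose in PMLGH against GelMA. Skeletal muscle markers rose for 7 of 10 genes in PMLGH against Model and 10 of 10 in GelMA against Model. They fell for 10 of 10 in PMLGH against GelMA. Their summed levels were 909.7 to 1272 CPM in PMLGH, 2666 to 3235 CPM in GelMA and 550.4 to 847 CPM in Model. Of 10 chondrocyte markers, 1 rose and 1 fell in PMLGH against Model and 2 rose in GelMA against Model. None passed in PMLGH against GelMA, with 4 at an unadjusted p under 0.05, 2 in DESeq2 and 0 in limma on FPKM. Their summed levels were 1743 to 2375 CPM in PMLGH, 2368 to 2651 CPM in GelMA and 1820.2 to 2310.3 CPM in Model, so that GelMA lay above Model and PMLGH overlapped both. No listed marker was at 0 in every library of a group. The part of these tissues in the values of the 9 genes, or of the related osteoblast, phosphate and osteocyte genes, was not tested.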

How the data were processed

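Raw counts were deposited by gene symbol, beside a deposited table of FPKM. The FPKM imply a single length for each of the 22798 genes with counts (relative tolerance 1e-04). DESeq2 and R 3.2.0 are named in the submitters' processing notes. No aligner, counter, build or strand is given in the sources used here. Counts were tested with edgeR 4.0.16 in R 4.3.3: filterByExpr, TMM, a quasi-likelihood fit of 1 mean per group over 9 libraries, two-sided, Benjamini-Hochberg over 16816 genes per comparison. The common biological coefficient of variation was 10.1%. Intervals at 95% and SEs derive from the F statistic. The fit was tested on simulated data, where somewhat more of its calls than the nominal share were unchanged genes, which bears on adjusted p just under 0.05. Alternatives used DESeq2 1.42.0 and limma 3.58.1 on log2 FPKM. No share of all genes was counted at an unadjusted p under 0.05, so counts at that cut stand without a background. The 9 genes and the 11 lists of related genes and markers were chosen with earlier results of these data known. Named list genes are the 4 of smallest p in PMLGH against Model per list, plus Enpp1, Col1a1 and Dmp1; 1 gene this rule names is counted in its list but not reported here by name. Correlations use log2 CPM with a prior count of 2.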

Additional observations from a re-analysis of the deposited data

How the results depend on the processing

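With other scalings, no filter, a robust spread, erythroid and globin genes left out of the totals, DESeq2, FPKM and each library left out, 5 to 7 of the 9 genes passed in PMLGH against Model and in GelMA against Model, and Sp7, Dlx5, Alpl, Bglap and Ibsp passed in both throughout. PMLGH against GelMA was less stable: against 0 called, the count was 1 with no filter, 1 in DESeq2, 4 in a fit of only those groups, 4 with the replicate number as a block, and 0 to 4 when single libraries were left out. Against 578 of all genes called there, the count was 1059 in a fit of only those groups, 909 in DESeq2, 1037 with the block, 384 on FPKM with a pseudocount of 0.1, and 303 to 1050 with single libraries left out. Deviations from the group mean hardly correlated between GelMA and PMLGH libraries of equal replicate number (0.014, 0.027 and -0.0083). This cannot show whether such libraries were paired, on which the labels are silent. Model shares too few numbers for a block. Runx2 in PMLGH against GelMA changed sign with upper-quartile scaling (-0.012) and FPKM with pseudocounts of 1 (-0.015) and 0.1 (-0.018), and ran from -0.062 to 0.060 with libraries left out. Dlx5 there ran from -0.069 to 0.032, and Spp1 in PMLGH against Model from -0.12 to 0.18. The ratios kept their direction throughout, also with a prior count of 0.5. None of these sign changes concerned a called value, and their cause was not tested.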
